A study of Mus musculus with 42 samples.

Results

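The genes described here are 8 autosomal long non-coding RNAs, Snhg11, Meg3, Rian, Mirg, Miat, Snhg14, Malat1 and Neat1, out of 52636 genes counted. They were chosen by name with their measured levels in these cultures already in view, so the differences between genotypes given for them are descriptions. Where one of them is said to pass a threshold, this places it in the fit over all genes, and nothing is read from it. Expression was read by RNA-seq in forebrain neuronal cultures begun at embryonic day 16 from 3 mouse genotypes, with 3 libraries each. These were euploid animals, Ts65Dn, which carry a segmental trisomy that includes Brwd1, and Ts65Dn;Brwd1+/-, a Ts65Dn mouse with a mutant allele (repro5) at Brwd1, all on a mixed DBA/2J and B6EiC3Sn/J background. The cultures are labelled as pooled from males and females, and 12 astrocyte markers summed to 3598 to 4773 CPM (counts relative to library size, scaled by TMM) over the 9 libraries beside the neuronal genes described below. Peaks near the 8 genes came from a separate tissue, the hippocampus of adult male mice, as 1 pooled list per genotype and assay. SMARCA2/4 ChIP-seq used 4 immunoprecipitated libraries per genotype, of 2 animals each, at 6 to 8 weeks of age. ATAC-seq used 3 libraries per genotype of sorted NeuN-positive nuclei, from animals labelled only as adult.

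Long non-coding RNAs act as RNA rather than through a protein. Snhg11, Rian and Snhg14 carry small nucleolar RNAs in their introns. Meg3, Rian and Mirg are expressed from the maternal chromosome of the imprinted Dlk1-Dio3 domain, where Mirg holds a large cluster of microRNAs, and Snhg14 is expressed from the paternal chromosome and runs antisense into Ube3a. Miat is a nuclear RNA abundant in neurons. Malat1 sits in nuclear speckles, and Neat1 is the scaffold of paraspeckles, and both are made by most cell types.

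Total counts in genes lay between 17270070 and 25892802 per library. Brwd1 was at 85.9 to 93.2 CPM in euploid, 125 to 129 in Ts65Dn, and 124 to 146 in the libraries labelled Ts65Dn;Brwd1+/-, so it was not lower in the last group than in Ts65Dn. The same 3 libraries had Xist at 1409 to 1982 CPM against at most 1.12 in the other 6, and 4 Y-linked genes summed to at most 0.149 CPM against at least 194. These libraries are therefore called by their label below, and sex and this genotype cannot be told apart in any comparison that uses them.

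The promoter of Snhg11 is shown because open chromatin was listed over it in every genotype, while its RNA differed most between Ts65Dn cultures and those of the other genotypes. Of the 8 genes, 7 had a promoter window in the RefSeq table (build GRCm38.p6), of 300 bases from before to just after the start. In the Snhg11 window, at chr2:158375463-158375762 on the plus strand, the capitals mark the 237 bases that lay inside the ATAC-seq peak of all 3 genotypes.
Snhg11 promoter: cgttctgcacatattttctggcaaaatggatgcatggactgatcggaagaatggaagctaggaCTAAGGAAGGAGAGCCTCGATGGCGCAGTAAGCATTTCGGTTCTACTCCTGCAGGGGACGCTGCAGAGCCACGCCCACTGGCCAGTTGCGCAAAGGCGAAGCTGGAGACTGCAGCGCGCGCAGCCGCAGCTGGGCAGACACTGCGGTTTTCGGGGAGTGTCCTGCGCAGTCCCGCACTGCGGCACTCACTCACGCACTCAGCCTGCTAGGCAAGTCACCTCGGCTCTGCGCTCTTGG
The Miat window, at chr5:112228899-112229198 on the minus strand, is shown for the SMARCA2/4 peak listed there in euploid hippocampus, in capitals.
Miat promoter: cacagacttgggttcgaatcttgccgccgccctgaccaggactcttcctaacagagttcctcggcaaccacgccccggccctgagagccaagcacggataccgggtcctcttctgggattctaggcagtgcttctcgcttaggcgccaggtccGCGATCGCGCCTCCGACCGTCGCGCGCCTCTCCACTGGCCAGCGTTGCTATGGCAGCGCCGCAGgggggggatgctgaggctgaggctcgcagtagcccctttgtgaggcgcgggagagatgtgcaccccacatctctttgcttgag
The stretch upstream of Malat1, at chr19:5803502-5803801 and read on the minus strand, is the middle of the 397 bases open in all 3 ATAC-seq lists. Its capitals mark the bases that also lay in the euploid SMARCA2/4 peak with the highest fold enrichment among peaks naming these genes.
Malat1 upstream: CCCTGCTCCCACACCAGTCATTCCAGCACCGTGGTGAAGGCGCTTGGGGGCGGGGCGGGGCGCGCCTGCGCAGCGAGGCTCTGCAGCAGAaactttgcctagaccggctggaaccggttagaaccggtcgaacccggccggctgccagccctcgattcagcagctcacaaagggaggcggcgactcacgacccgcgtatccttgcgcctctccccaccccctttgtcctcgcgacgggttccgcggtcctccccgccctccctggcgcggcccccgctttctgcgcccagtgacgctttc
The Snhg11 and Miat windows held 60.0 and 64.3% G and C with 21 and 25 CG pairs, against a median of 52.7% and 7 pairs over all windows in the table. GGGCGG, searched on both strands, was in the Miat window and in 35.7% of all windows, and TGACGTCA was in the first of 2 windows that the table gives for Meg3 and in 1.79% of all windows. CCAAT was in the windows of Mirg and Snhg14 and the first of Meg3 and in 37.4% of all windows, TATAAA was in the first of Meg3 and in 13.6%, and CACGTG was in no member's window and in 7.15%. Such matches describe the letters in these windows only.

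Mirg spans 14 microRNA genes with 26 mature microRNAs in RefSeq, Rian 3 genes with 6, and Meg3 2 genes with 3, while the other 5 genes hold none. The 26 of Mirg have 25 different seeds, and the sequences below show the pair that share one and both arms of a hairpin that a SMARCA2/4 peak (q-value 0.054) partly overlapped, with bases 2 to 8 (the seed) in capitals. MicroRNAs themselves were not measured.
mmu-miR-453: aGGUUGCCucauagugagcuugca
mmu-miR-496a-5p: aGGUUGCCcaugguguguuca
mmu-miR-3072-5p: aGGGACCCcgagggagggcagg
mmu-miR-3072-3p: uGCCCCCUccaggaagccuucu

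Snhg11 had the largest difference of the 8 genes between Ts65Dn and euploid cultures. The gene (ENSMUSG00000044349, chr2:158375638-158386145, plus strand, mm10) is annotated as protein coding although it is known as a host of small nucleolar RNAs. Its level was 257, 261 and 262 CPM in the euploid libraries, 60.8, 43.8 and 23.8 in Ts65Dn, and 262, 233 and 210 in the libraries labelled Ts65Dn;Brwd1+/-. Every Ts65Dn library was below every other library, and the other genotypes overlapped. On the log2 scale the fitted difference was -2.60 (SE 0.27) for Ts65Dn against euploid, a 6.07-fold lower level, 2.46 (SE 0.27) for Ts65Dn;Brwd1+/- against Ts65Dn, and -0.15 (SE 0.25) for Ts65Dn;Brwd1+/- against euploid. Of all 17173 genes tested, 98.9% had a smaller absolute log2 difference between Ts65Dn and euploid. The spread was uneven between genotypes, at 260 ± 3.06 CPM in euploid and 42.8 ± 18.5 in Ts65Dn (SD, n = 3 each).

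**Figure D1:**
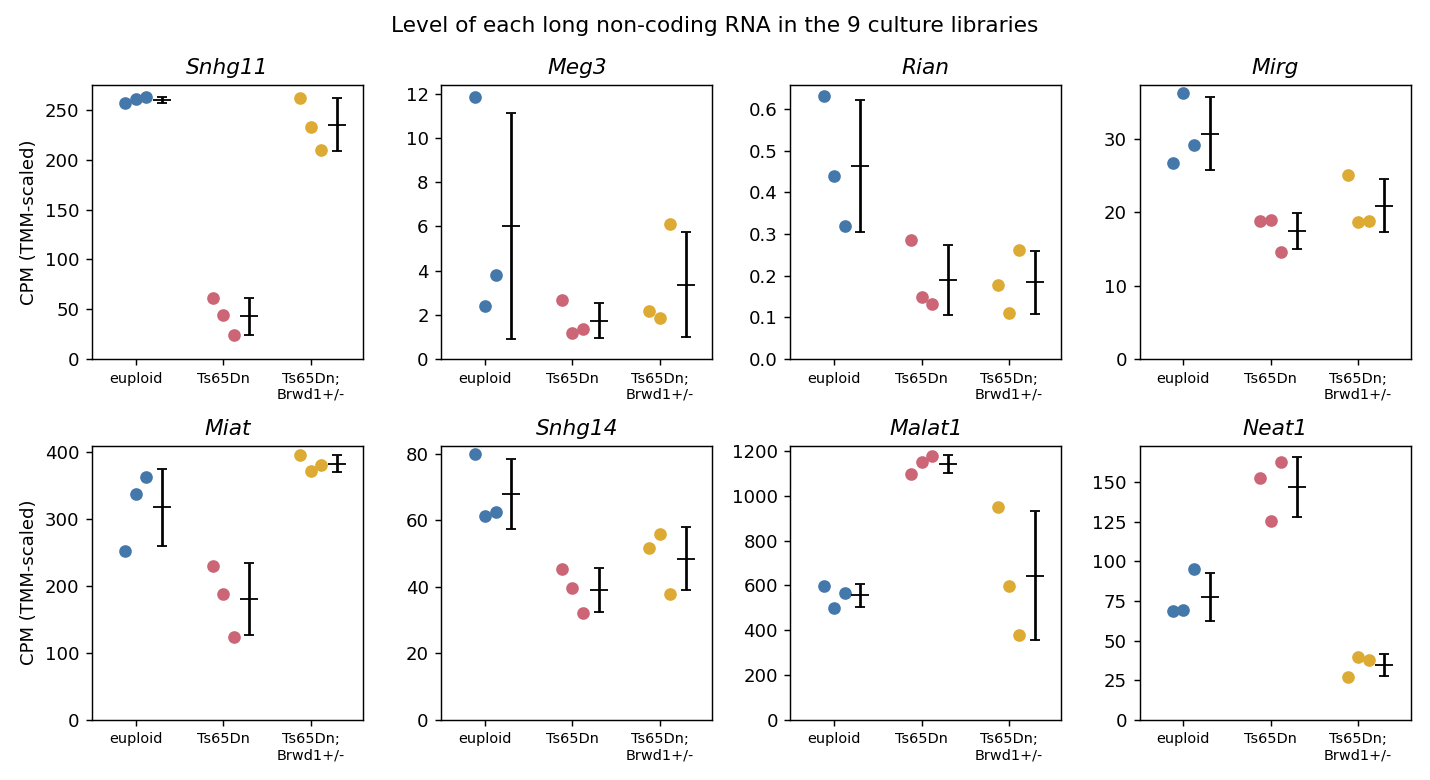
Level of each of the 8 genes in CPM (y axes start at 0) in the 3 euploid, 3 Ts65Dn and 3 Ts65Dn;Brwd1+/- libraries, 1 point per library, with mean and SD as black bars. Snhg11 lies at 23.8 to 60.8 CPM in Ts65Dn and at 210 or more in every other library, while Malat1 is highest in Ts65Dn, at 1097 to 1178 CPM.

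The 12 pan-neuronal marker genes moved with Snhg11: they summed to 4981 to 6076 CPM in euploid, 1271 to 3349 in Ts65Dn, and 4951 to 6360 in the libraries labelled Ts65Dn;Brwd1+/-, with none at 0 in any library, and 10 of 12 passed the test as lower in Ts65Dn. Of all 17173 tested genes, 46.7% passed in that comparison, 25.6% as higher and 21.1% as lower, and the counts of listed genes below stand beside those shares. All 12 GABAergic interneuron markers also passed as lower in Ts65Dn (median log2 difference -1.64, against 0.04 over all genes tested). Their sum was 1221 to 1307 CPM in euploid, 273 to 465 in Ts65Dn and 1695 to 1858 in the libraries labelled Ts65Dn;Brwd1+/-, where it was highest. Of 12 glutamatergic neuron markers 9 passed as lower and 0 as higher (median -1.24), and they summed to 1429 to 1851 CPM in euploid, 413 to 984 in Ts65Dn and 1445 to 1973 in the third genotype. In bulk RNA, fewer cells of a type and less RNA per cell cannot be told apart. Relative to the mean log2 CPM of the pan-neuronal genes in the same library, Snhg11 was at -0.28 ± 0.16 in euploid cultures, -1.82 ± 0.25 in Ts65Dn and -0.38 ± 0.11 in Ts65Dn;Brwd1+/- (SD, n = 3 each). Its 3 Ts65Dn values stayed below all other values on this scale. Miat, by contrast, was at -0.01 ± 0.39, 0.31 ± 0.41 and 0.33 ± 0.15 on it, with overlapping groups. Mirg (-3.37 ± 0.24 in euploid and -3.02 ± 0.63 in Ts65Dn) and Snhg14 (-2.23 ± 0.20 and -1.87 ± 0.61) were not lower in Ts65Dn on this scale either, and for each the euploid and Ts65Dn libraries overlapped. In Ts65Dn;Brwd1+/- Mirg was at -3.87 ± 0.05, with every library below those of euploid and Ts65Dn. Snhg14 was at -2.67 ± 0.32 there, overlapping euploid.

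**Figure D2:**
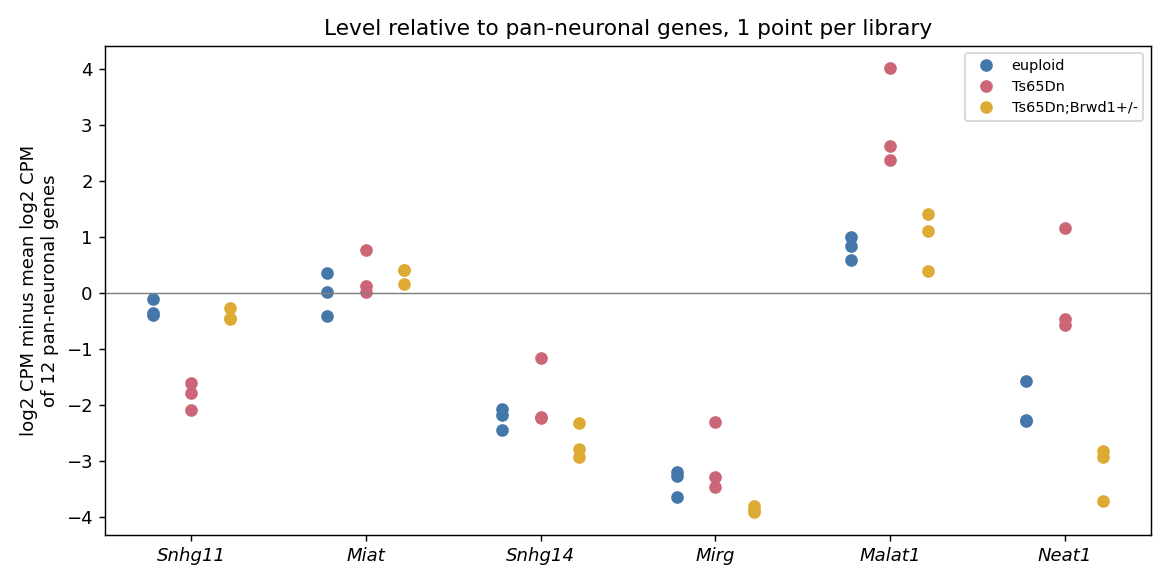
Log2 CPM of 6 of the genes minus the mean log2 CPM of 12 pan-neuronal genes in the same library (y axis, log2 scale), 1 point per library, coloured by genotype. Snhg11 lies between -2.09 and -1.60 in Ts65Dn and above -0.46 elsewhere, whereas the Miat groups overlap.

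Of 6 tested neighbours of Snhg11 on chromosome 2, 3 were lower and 1 was higher in Ts65Dn than in euploid by edgeR's quasi-likelihood test, where 46.7% of all tested genes passed. Slc32a1, the vesicular transporter of GABA and itself one of the interneuron markers, fell by 1.74 on the log2 scale (SE 0.21), and Fam83d rose by 0.57 (SE 0.13). The 5 genes most like Snhg11 over the 9 libraries were Cntnap3, Stard7, Filip1, Pnma2 and Ubash3b, with Pearson's r from 0.994 to 0.996. These r values come from 9 libraries that differ mainly by genotype and share their depth and composition.

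The imprinted transcripts of the Dlk1-Dio3 domain were far apart in level. Mirg (ENSMUSG00000097391, chr12:109729764-109749460, plus strand) was measured at 332 to 828 counts, Meg3 (ENSMUSG00000021268, chr12:109541001-109571726, plus strand) at 24 to 244, and Rian (ENSMUSG00000097451, chr12:109603940-109661716, plus strand) at 2 to 13, too few to pass the filter on low counts. Mirg was at 26.7, 36.3 and 29.2 CPM in euploid, 18.8, 19.02 and 14.7 in Ts65Dn, and 25.2, 18.8 and 18.9 in Ts65Dn;Brwd1+/-. The euploid libraries stood above both other genotypes, which overlapped each other. The fitted log2 difference of Mirg was -0.81 (SE 0.16) for Ts65Dn against euploid, 0.26 (SE 0.16) for Ts65Dn;Brwd1+/- against Ts65Dn and -0.55 (SE 0.16) for Ts65Dn;Brwd1+/- against euploid. The second of these, which was not past the threshold, became 0.12 without Ts65Dn;Brwd1+/- replicate 1 and 0.15 without Ts65Dn replicate 3.

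Meg3 was at 11.8, 2.41 and 3.78 CPM in euploid, 2.65, 1.19 and 1.37 in Ts65Dn, and 2.19, 1.84 and 6.08 in Ts65Dn;Brwd1+/-. The groups overlapped in every comparison, and euploid replicate 1 stood above the rest. Its log2 difference of -1.75 (SE 0.66) for Ts65Dn against euploid became -0.81 without that library and was then no longer past the threshold. Leaving out Ts65Dn replicate 2 or 3, or Ts65Dn;Brwd1+/- replicate 1 or 2, also ended the call, with values from -1.55 to -1.80, as did a fit of the 2 compared genotypes alone (-1.80). Rian was at 0.319 to 0.631 CPM in euploid, 0.132 to 0.286 in Ts65Dn, and 0.111 to 0.261 in Ts65Dn;Brwd1+/-, where 3 counts amount to 0.112 to 0.167 CPM, so its differences rest on a few reads. Other genes share 8.29% of the exon bases of Meg3 and 3.42% of those of Rian.

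Of 10 tested genes in or beside the Dlk1-Dio3 domain, 4 were lower and 0 were higher in Ts65Dn than in euploid (median log2 difference -0.15), a share near the 46.7% of all tested genes. Dio3, the deiodinase that inactivates thyroid hormone and is expressed from the paternal chromosome, fell by 0.62 (SE 0.20) in Ts65Dn and rose by 1.05 (SE 0.17) in Ts65Dn;Brwd1+/- against euploid. Begain, a synaptic protein, fell by 1.19 (SE 0.30) in Ts65Dn. Of 23 tested imprinted genes elsewhere in the genome, 8 were higher and 8 lower in Ts65Dn, with H19 the largest rise (log2 difference 3.59, SE 0.27) and Igf2 the largest fall (-1.95, SE 0.33). In euploid, H19 was low, at 0.586 ± 0.127 CPM, and Igf2 was uneven, at 28.4 ± 16.3 (SD).

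Snhg14 (ENSMUSG00000100826, chr7:59307924-59975759, minus strand) was at 80.1, 61.3 and 62.4 CPM in euploid, 45.4, 39.6 and 32.1 in Ts65Dn, and 51.6, 55.9 and 37.9 in Ts65Dn;Brwd1+/-. The euploid libraries were above both other genotypes, which overlapped. Its log2 difference was -0.80 (SE 0.17), 0.31 (SE 0.17) and -0.49 (SE 0.17) for Ts65Dn against euploid, Ts65Dn;Brwd1+/- against Ts65Dn and Ts65Dn;Brwd1+/- against euploid. The second of these, not past the threshold, passed without Ts65Dn;Brwd1+/- replicate 3 (0.46), without a filter on low counts (0.33) and with a replicate block (0.31), and over the fits without 1 library it ranged from 0.18 to 0.46. Its exons share 1803 bases with Ube3a on the other strand (1447 to 2023 counts), and since the library kit does not mark strand, reads there cannot be assigned to either. Of 11 tested genes in the Snrpn-Ube3a domain, 7 were lower and 2 higher in Ts65Dn than in euploid, against 21.1 and 25.6% of all tested genes, among them Magel2 (log2 difference -1.76, SE 0.26) and the GABA receptor subunit gene Gabra5 (-1.32, SE 0.32).

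Miat (ENSMUSG00000097767, chr5:112213228-112229395, minus strand) was at 252, 337 and 363 CPM in euploid, 230, 189 and 124 in Ts65Dn, and 396, 372 and 381 in Ts65Dn;Brwd1+/-. No genotype overlapped another, and Ts65Dn;Brwd1+/- was highest. The log2 difference was -0.81 (SE 0.20) for Ts65Dn against euploid, 1.08 (SE 0.20) for Ts65Dn;Brwd1+/- against Ts65Dn and 0.27 (SE 0.20) for Ts65Dn;Brwd1+/- against euploid. Of its exon bases, 24.3% lie opposite another gene, Gm26953, which had 1 to 12 counts. Of 7 tested neighbours, 3 were lower and 1 higher in Ts65Dn than in euploid, with Sez6l, a neuronal membrane protein gene, at -1.66 (SE 0.37). Celf3, a splicing factor of the family that binds Miat, fell by 1.31 (SE 0.32) in Ts65Dn and was 1 of 2 tested factors.

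Malat1 and Neat1 went the other way. Malat1 (ENSMUSG00000092341, chr19:5795690-5802672, minus strand) was at 599, 501 and 566 CPM in euploid, 1097, 1149 and 1178 in Ts65Dn, and 950, 599 and 381 in Ts65Dn;Brwd1+/-. The Ts65Dn libraries were above all others, and the Ts65Dn;Brwd1+/- libraries spread over more than the whole euploid range. The log2 difference was 1.04 (SE 0.26) for Ts65Dn against euploid, -0.83 (SE 0.26) for Ts65Dn;Brwd1+/- against Ts65Dn, and 0.21 (SE 0.25) for Ts65Dn;Brwd1+/- against euploid. Without Ts65Dn;Brwd1+/- replicate 2 the second of these, then -0.77, was no longer past the threshold. The third, not past the threshold, changed sign among the fits that left out 1 library, with the range given in the closing section.

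Neat1 (ENSMUSG00000092274, chr19:5824708-5845478, minus strand) was at 68.6, 69.2 and 95.1 CPM in euploid, 152, 126 and 163 in Ts65Dn, and 26.8, 39.3 and 37.5 in Ts65Dn;Brwd1+/-. No genotype overlapped another, and here the libraries labelled Ts65Dn;Brwd1+/- were below euploid, with a log2 difference of -1.17 (SE 0.17). Against Ts65Dn the difference was -2.09 (SE 0.18), and Ts65Dn stood 0.92 (SE 0.17) above euploid. Markers of meninges and fibroblasts moved the same way, summing to 1766 to 2347 CPM in euploid, 6232 to 10126 in Ts65Dn, and 1212 to 1275 in Ts65Dn;Brwd1+/- with at most 1 of 12 genes at 0 in a library, and their part in the levels of Malat1 and Neat1 was not tested. In Ts65Dn against euploid, 6 of these 12 marker genes were higher and 5 lower, and endothelial and pericyte markers summed to 138 to 160 CPM in euploid, 730 to 962 in Ts65Dn and 136 to 187 in the third genotype, with up to 4 of 12 at 0 in a library, and of 5 that could be tested 2 were higher and 0 lower in Ts65Dn than in euploid. The summed radial glia markers followed the order of Neat1 over the genotypes, at 4040 to 4721, 7151 to 9403 and 2905 to 3362 CPM with none at 0, although 7 of the 12 were higher and 4 lower in Ts65Dn than in euploid. The summed microglia markers did so too, at 27.4 to 39.0, 44.5 to 54.9 and 18.3 to 25.2 CPM with up to 4 of 12 at 0, where 1 of 8 tested was higher and 2 lower. The part of these markers in the levels of Neat1 was not tested.

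Of 11 tested genes around Malat1 and Neat1 on chromosome 19, 6 were higher and 1 lower in Ts65Dn than in euploid, against 25.6 and 21.1% of all tested genes. Ltbp3, which encodes a binding protein of latent TGF-beta, rose by 1.56 (SE 0.17), and Frmd8 by 0.71 (SE 0.11). Of 14 paraspeckle proteins, 3 were higher and 1 lower in Ts65Dn, the lower being Sfpq (log2 difference -0.87, SE 0.25), and of 11 tested nuclear speckle proteins only Son passed (1.01, SE 0.09). Son lies in the triplicated segment. The genes most like Neat1 over the 9 libraries were Acad11, 2410004P03Rik and Armc3 (r from 0.996 to 0.998), and those most like Malat1 were F830016B08Rik, Golga7 and Il15 (r from 0.938 to 0.948).

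Counting the 8 genes together, 7 passed the filter on low counts and 7 of those passed an adjusted p under 0.05 between Ts65Dn and euploid, 2 higher and 5 lower, where 46.7% of all tested genes passed (25.6% higher and 21.1% lower). In 6 of the 7 the libraries of these genotypes did not overlap, against 56.8% of all tested genes. Between Ts65Dn;Brwd1+/- and Ts65Dn 4 passed, 2 in each direction, against 58.1% of all tested genes (27.6% higher and 30.5% lower), and 4 did not overlap, against 68.4%. Between Ts65Dn;Brwd1+/- and euploid Mirg and Neat1 passed, both lower, against 29.2% of all tested genes (14% higher and 15.2% lower), and 4 did not overlap, against 45.9%. Mirg lost this call in 3 of the fits without 1 library (euploid replicate 2, Ts65Dn;Brwd1+/- replicate 2 or 3; log2 difference -0.42 to -0.52), and Snhg14, which did not pass, did so under 8 alternatives, with values from -0.49 to -0.63. Because the genes were selected on these differences, nothing is read from the counts, and the comparisons share libraries.

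**Figure D3:**
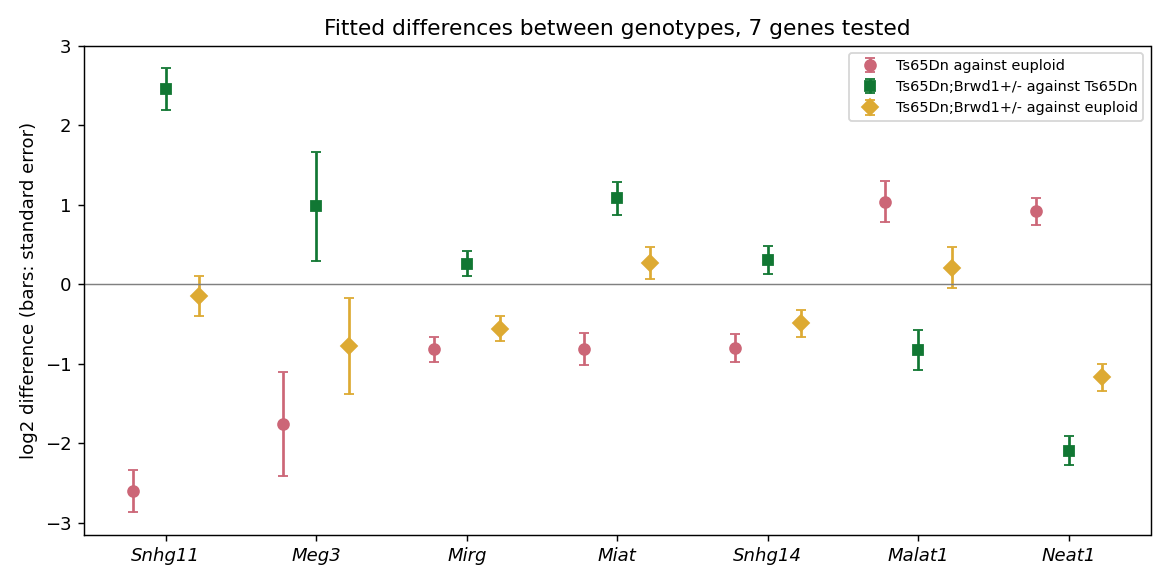
Fitted log2 difference (y axis) with its standard error (bars) for the 7 tested genes in the 3 comparisons of genotypes. Snhg11 lies at -2.60 for Ts65Dn against euploid and at 2.46 for Ts65Dn;Brwd1+/- against Ts65Dn, and Malat1 and Neat1 lie on the opposite side of 0 in both.

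The contrast of the first 4 genes with Malat1 and Neat1 was summarised as the mean log2 CPM of Snhg11, Meg3, Rian and Mirg minus that of Malat1 and Neat1. It was -3.70, -4.14 and -4.47 in euploid cultures, -6.12, -6.57 and -7.06 in Ts65Dn and -4.33, -4.58 and -3.63 in Ts65Dn;Brwd1+/-. The Ts65Dn libraries lay below all others, and the other genotypes overlapped. Rian and Meg3 enter it with few counts, and Snhg11 minus Malat1 alone was -1.22, -0.94 and -1.11 in euploid cultures, -4.17, -4.71 and -5.62 in Ts65Dn and -1.86, -1.36 and -0.86 in Ts65Dn;Brwd1+/-.

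Per length, as RPKM (CPM divided by exon length in kilobases), the level in euploid was highest for Malat1, at 79.5 ± 7.14, followed by Miat at 34.2 ± 6.24 and Snhg11 at 30.5 ± 0.36 (SD, n = 3 each). Miat and Snhg11 overlapped in RPKM. The length was every annotated exon base, 20771 for Neat1 and 9293 for Miat, and other genes share 30.4% of those of Miat. Which part of these exons was read was not tested, so the order of genes holds for this length only. Mirg (4.22 ± 0.684), Neat1 (3.74 ± 0.730) and Snhg14 (2.60 ± 0.404) came next, of which Mirg and Neat1 overlapped, and Meg3 (0.332 ± 0.282) and Rian (0.0254 ± 0.00864) were lowest. In Ts65Dn, Snhg11 was at 5.03 ± 2.17 RPKM, and Neat1 at 7.07 ± 0.919, with overlapping libraries.

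Among 13 tested lncRNAs that also host small nucleolar RNAs, 2 were higher and 2 lower in Ts65Dn than in euploid (median log2 difference -0.03), with Snhg20 at 0.60 (SE 0.11) and Snhg6 at -0.50 (SE 0.12). Of 20 other tested brain and nuclear lncRNAs, 3 were higher and 12 lower (median -0.53), against 25.6 and 21.1% of all tested genes. Dlx6os1, an interneuron-lineage transcript, fell by 1.32 (SE 0.19) in Ts65Dn, and Crnde rose by 2.77 (SE 0.18). Between Ts65Dn;Brwd1+/- and Ts65Dn, 13 of these 20 rose and 3 fell, against 27.6 and 30.5% of all tested genes.

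In hippocampus, 30 peaks over the 6 lists named a member. SMARCA2/4 peaks named 3 members in the euploid list, 2 in that of Ts65Dn and 1 in that of Ts65Dn;Brwd1+/-, where 38.6, 4.14 and 4.89% of the genes tested in culture were named by at least 1 peak. ATAC-seq peaks named 3, 4 and 5 members, where 53.3, 66.0 and 65.6% of those genes were named. The lists themselves held 22667, 1290 and 1873 SMARCA2/4 peaks and 15521, 29195 and 30244 ATAC-seq peaks, without replicates, and the difference between lists for a gene was not tested.

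Snhg11 had a single ATAC-seq peak over its start in each genotype and no SMARCA2/4 peak. The peak was at chr2:158375526-158375791 in euploid (fold enrichment 2.91), chr2:158375514-158375792 in Ts65Dn (3.90) and chr2:158375502-158376018 in Ts65Dn;Brwd1+/- (3.31). Open chromatin at Snhg11 was listed in adult Ts65Dn neurons, a different tissue and age from the cultures in which its RNA was low. Malat1 had 5 SMARCA2/4 peaks in euploid, the highest at chr19:5803712-5804904 (fold enrichment 6.24, above 99.6% of that list), and 1 each in Ts65Dn and Ts65Dn;Brwd1+/-, with q-values of 0.0903 and 0.0786. Its ATAC-seq peak upstream of the start was listed in every genotype, at fold enrichments of 4.23, 4.79 and 3.89.

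Miat had a SMARCA2/4 peak at its start (chr5:112228982-112229045, fold enrichment 4.97) and another inside the gene in euploid, and 1 peak with a q-value of 0.75 in Ts65Dn. Its list of ATAC-seq peaks held 2 in euploid, 3 in Ts65Dn and 2 in the third genotype. Those of euploid, at chr5:112227415-112227720 and, by the start, chr5:112228556-112228829, each overlapped a peak in both other lists. The third Ts65Dn peak, at chr5:112228915-112229114, spans the capitals of the Miat window shown above and overlapped a peak in the Ts65Dn;Brwd1+/- list. That peak, at chr5:112228526-112229098 over the Miat start, named Gm27357 and is not in the count of Miat. Mirg had 2 SMARCA2/4 peaks in euploid, at chr12:109749718-109749773 past the end of the gene (fold enrichment 3.77, q-value 0.00668) and at chr12:109747900-109747957 inside part of the miR-3072 hairpin (q-value 0.054). It had an ATAC-seq peak just past its end in Ts65Dn and in Ts65Dn;Brwd1+/-, with a further one inside the gene in the latter. Snhg14 had 1 ATAC-seq peak, in Ts65Dn;Brwd1+/-, and Meg3, Rian and Neat1 were named by none. Near Neat1, 13 SMARCA2/4 peaks of the euploid list, 1 of the Ts65Dn list and 7 in Ts65Dn;Brwd1+/- lay within 5 kb of the gene but named another gene or none, most of them Frmd8os.

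**Figure D4:**
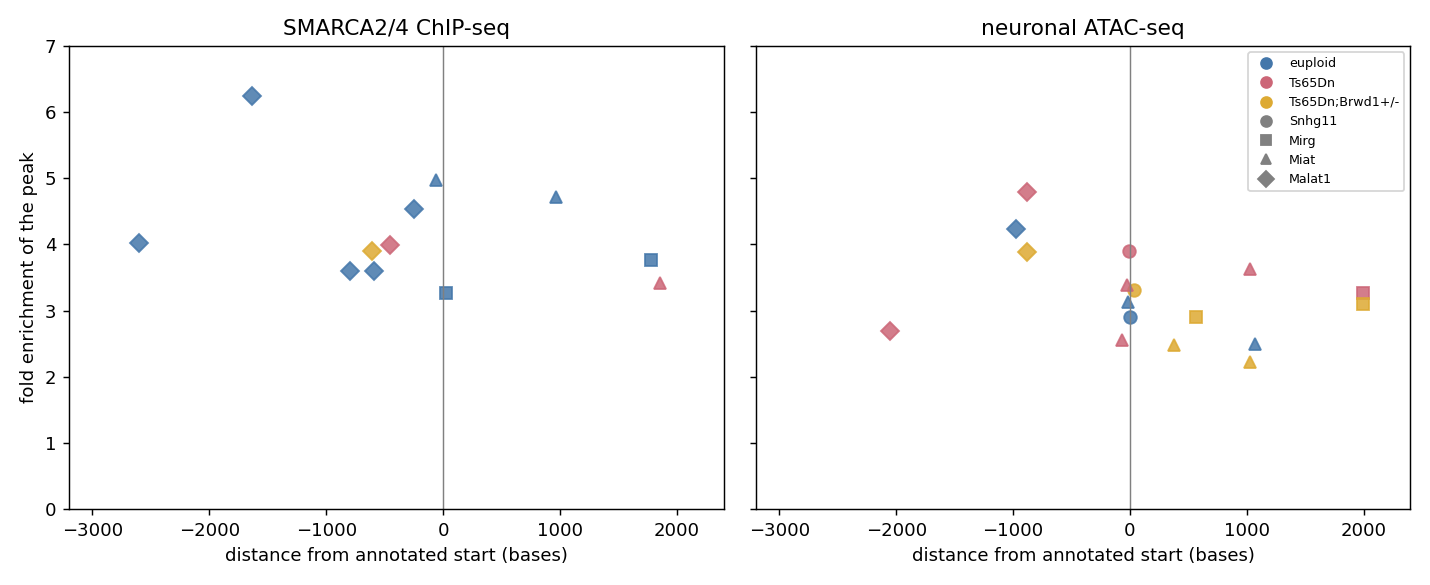
Fold enrichment of each peak naming Snhg11, Mirg, Miat or Malat1 (y axis) against its distance from the annotated start (x axis, bases), with SMARCA2/4 ChIP-seq at left and neuronal ATAC-seq at right, coloured by genotype. The 5 Malat1 peaks of the euploid SMARCA2/4 list reach 6.24, and the Snhg11 ATAC-seq peaks lie at the start at 2.91 to 3.90.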

How the data were processed

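Neuronal cultures, hippocampus and sorted hippocampal nuclei of 3 genotypes were grouped by their labels. The authors aligned reads to mm10 with HISAT2 and deposited raw counts per gene. The paper names featureCounts, whereas each file ends in the summary lines of htseq-count. Lines naming no gene took 37.4 to 40.0% of counts and were left out. TruSeq RNA v2 does not mark strand. The authors deposited pooled peak lists giving each peak a q-value and its fold enrichment, a ratio to background, called with MACS, and depth per library is unknown for these. The labels do not say whether the libraries of a genotype came from separate litters, so p-values may measure technical spread only.

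Counts were filtered with filterByExpr and scaled by TMM, leaving 17173 genes, and all 9 libraries were fitted with edgeR 4.0.16 (R 4.3.3), using the quasi-likelihood test with Benjamini-Hochberg adjustment at 0.05. Log2 CPM used a prior count of 2, and the fit was tested on simulated data. Peak positions are given as in the lists and overlap means at least 1 bp. Of 28069 transcripts in the lists, 95.1% had the same position in GENCODE vM21, so both use GRCm38. The members and lists were chosen with earlier results of these data known. Named genes were all members, up to 3 genes per list and comparison with the largest difference past the threshold (not all are printed), and the 5 or 3 genes most correlated with a member. Deviations from the genotype mean of same-numbered libraries correlated over genes at 0.129, 0.206 and 0.263 between euploid and Ts65Dn, which pairs them by the rule used (every pair over 0.1), a hint from the data since the labels do not say what a number marks. This did not hold for the comparisons with Ts65Dn;Brwd1+/-. Alternatives were DESeq2 1.42.0, other scaling and filters, a replicate block, a factor of unwanted variation and leaving out each library.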

Additional observations from a re-analysis of the deposited data

How the results depend on the processing

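Every log2 difference of Snhg11, Mirg, Miat, Snhg14, Malat1 and Neat1 stayed within 1 SD of its value under the alternatives run. This SD is that of log2 CPM among libraries of a genotype, pooled over the genotypes compared, and not the SE. Snhg11, at -2.60 (SE 0.27) for Ts65Dn against euploid, became -2.94 without Ts65Dn replicate 1. The counts over all genes and listed genes stayed within 1.5 times. For Meg3 the difference between Ts65Dn;Brwd1+/- and Ts65Dn was 0.98 and became 0.20 without Ts65Dn;Brwd1+/- replicate 3. Leaving out 1 library at a time gave 6 to 7 members past the threshold for Ts65Dn against euploid, 3 to 5 for Ts65Dn;Brwd1+/- against Ts65Dn and 1 to 3 for Ts65Dn;Brwd1+/- against euploid. In the last comparison 1 was left without euploid replicate 2 or without Ts65Dn;Brwd1+/- replicate 3, where Mirg was lost (log2 difference -0.42 and -0.52), as it was without Ts65Dn;Brwd1+/- replicate 2 (-0.51). The differences from euploid in Ts65Dn;Brwd1+/- that were not past the threshold changed sign when 1 library was left out for Meg3 (-1.59 to 0.17) and Malat1 (-0.21 to 0.45). The summary of 4 genes minus Malat1 and Neat1 differed by -0.08 between Ts65Dn;Brwd1+/- and euploid and ranged from -0.35 to 0.12, turning to 0.12 without euploid replicate 1 or Ts65Dn;Brwd1+/- replicate 2. The cause was not tested.

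Between euploid and Ts65Dn each library correlated best with its own number, whereas same-numbered pairs with Ts65Dn;Brwd1+/- ranged from -0.16 to 0.28, which leaves the numbers there as names only. With a replicate block, 7, 5 and 3 members passed in the 3 comparisons in the order above, against 7, 4 and 2 without, the added one being Snhg14 both times, and 8349, 10268 and 5397 of all genes, against 8017, 9980 and 5008. The block changed no other member's call. Snhg14 against euploid also passed with DESeq2, without a filter, with 1 factor of unwanted variation, with the 2 genotypes alone and without Ts65Dn replicate 1 or 3 or Ts65Dn;Brwd1+/- replicate 2.

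Counts of peaks naming a member were 9, 2 and 1 for SMARCA2/4 and 4, 7 and 7 for ATAC-seq in euploid, Ts65Dn and Ts65Dn;Brwd1+/-. With a fold enrichment over 4 they were 5, 0 and 0 and 1, 1 and 0. With q under 0.05 the SMARCA2/4 counts were 8, 0 and 0, and those of ATAC-seq did not change. By position within 5 kb of the gene they were 32, 5 and 8 for SMARCA2/4, and 6, 11 and 12 for ATAC-seq. Depth limits Rian, at 2 to 13 counts.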
